A study of Mus musculus with 19 samples.

Results

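The 10 genes described here encode core transcription factors and repressors of the circadian clock and a pair of factors that act at its output: *Arntl*, *Clock*, *Per1*, *Per2*, *Per3*, *Cry1*, *Nr1d1*, *Nr1d2*, *Dbp* and *Tef*. They were chosen by gene symbol among the 19505 genes measured, and each has 1 probe set on the array. Liver RNA came from male C57BL/6N mice aged 20 weeks, fed a high-protein diet *ad libitum*. The 9 controls (*Mmut*-ki/wt) carried a wild-type allele and a knock-in allele of *Mmut*, the gene of the mitochondrial enzyme methylmalonyl-CoA mutase, and the 10 mutants (*Mmut*-ko/ki) carried a knock-out allele and the same knock-in allele, so both groups share the knock-in and no group of wild-type mice enters the comparison. All mice were kept on a daily cycle of light and dark, and the time of day at which each liver was taken is not given in the sources used here.

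The mammalian clock is a loop of transcription that runs in nearly every cell. ARNTL (also called BMAL1) pairs with CLOCK, or with its relative NPAS2, and switches on genes through a DNA word called the E-box. Among those genes are the *Per* and *Cry* genes, whose proteins return to the nucleus and hold ARNTL and CLOCK in check, and *Nr1d1* and *Nr1d2*, whose proteins (REV-ERB alpha and beta) repress *Arntl* through another word, the RORE. DBP, TEF and HLF, a family of PAR bZIP factors, bind a further word, the D-box, and carry the rhythm to genes of liver metabolism. NFIL3 binds the same word as a repressor. In liver the RNA of most of these genes rises and falls over the day, and *Clock* RNA does so less than the others. Feeding, glucocorticoids and body temperature can set the phase of the liver clock.

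Promoter sequences are shown to place these words in the members. RefSeq promoter windows (GRCm38.p6, from 250 bases before to 50 after a start site) were used for 9 of the 10 genes, all but *Per2*, in 14 windows. The words were searched as exact letters on both strands: CACGTG for the E-box, which reads the same on both, TTATGTAA for the D-box, and AGGTCA for the core of the RORE, which other nuclear receptors also use. The E-box was in windows of 3 members (*Per1*, *Cry1* and *Tef*), and 8.09% of the 27025 genes with a window hold it. The RORE core was in 4 members (*Arntl*, *Clock*, *Per1* and *Nr1d2*), against 18.1% of all genes. Of the 9 genes searched, *Per3* alone held the D-box, at 2 places, against 1.11% of all genes. No match overlapped another in these windows, and *Nr1d1* and *Dbp* held none of the 3 words. The search cannot see sites outside the windows or with other letters, so a missing match does not mean that a gene lacks the site. Capitals mark the word in each sequence, which runs 5′ to 3′ on the strand of the gene, and TGACCT is the RORE core read on the other strand. The 2 genes whose RNA changed between the genotypes come first, then 1 E-box each of *Per1* and *Cry1* and the RORE cores of *Clock* and *Nr1d2*.
*Arntl*, RORE core, chr7:113207531-113207558, + strand: aggcagaaagtAGGTCAgggacggaggt
*Per3*, 2 D-boxes, chr4:151044805-151044881, − strand: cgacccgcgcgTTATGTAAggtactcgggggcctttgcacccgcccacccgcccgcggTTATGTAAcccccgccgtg
*Per1*, E-box, chr11:69098772-69098799, + strand: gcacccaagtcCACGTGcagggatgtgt
*Cry1*, E-box, chr10:85185098-85185125, − strand: gtgccggtggtCACGTGgggtgcatgcc
*Clock*, RORE core, chr5:76303605-76303632, − strand: gctttggcctcTGACCTgacagatgaca
*Nr1d2*, RORE core, chr14:18239167-18239194, − strand: attggaagaagAGGTCAggaccgctcgt
Counted from the start site, the *Per3* D-boxes begin at -205 and -158, 47 bases apart and in the same direction. The *Arntl* match begins at base 32 of the transcript, and the *Per1* and *Cry1* E-boxes begin at -166 and -60.

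RNA was measured on Mouse Clariom S arrays, which hold short probes for each gene, with 1 array per mouse. Values are log2 signals, so a difference of 1 is a doubling, and signals of different genes cannot be set against each other because their probes differ. A gene is called detected on an array where the deposited p-value of detection above background is under 0.05. The median log2 signal of an array was 5.14 to 5.25 in the controls and 5.19 to 5.25 in the mutants, and the percentage of probe sets detected was 68.0% to 72.7% in the controls and 69.8% to 77.1% in the mutants. The median correlation of an array with the others lay between 0.982 and 0.986 for all 19. *Mmut* itself was lower in all 10 mutants than in every control, with a mean log2 signal of 11.54 ± 0.25 (SD, n = 10) against 13.20 ± 0.23 (SD, n = 9). The 6 hepatocyte markers were detected on all arrays. Of these, 4 (*Alb*, *Apoa1*, *Ttr* and *Serpina1a*) were saturated, within 0.1 of the highest signal of every array (19.91 to 19.92), and could show no change, while *Hnf4a* at 0.13 and *Cps1* at -0.19 did not pass (limma, adjusted p = 0.677 and 0.232).

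Between the genotypes, *Arntl* fell and *Per3* rose in the mutants, and the other 8 members did not pass the test. The test was limma's moderated test, two-sided, with the Benjamini-Hochberg adjustment made across all 19505 genes and a threshold of 0.05, which called 10.1% of all genes (4.73% higher and 5.33% lower in the mutants). Against that background a count of 2 in 10 is no result about the clock genes as a group. Unadjusted, 5 of the 10 had p under 0.05, against 4346 of the 19505 genes. The median log2 change over the 10 members was 0.09, with 5 genes higher and 5 lower, beside a median of 0.00 over all genes. The signs did not run 1 way, since both activators had lower means and both output factors had higher ones.

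**Figure D1:**
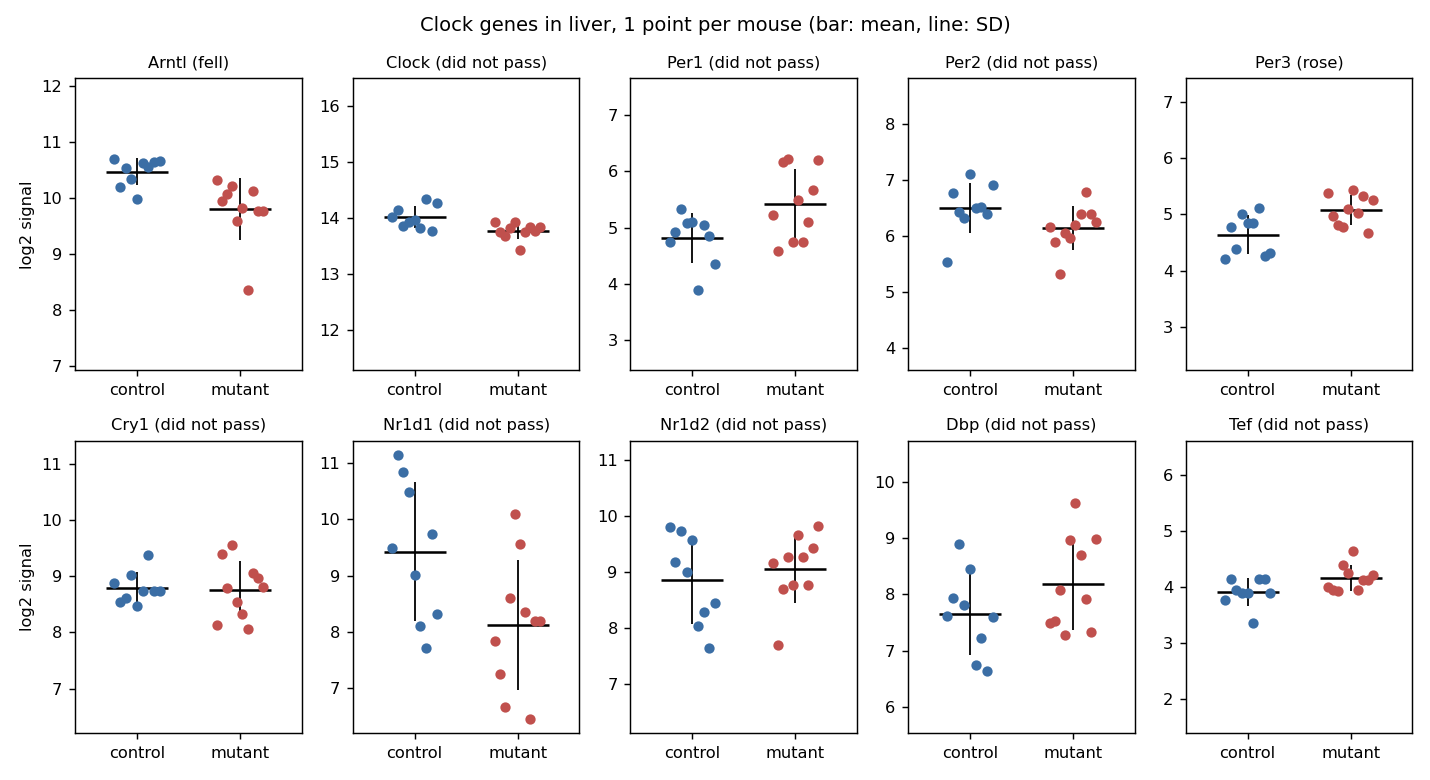
Log2 signal of the 10 clock genes, 1 panel per gene and 1 point per mouse, in 9 controls (blue) and 10 mutants (red). The horizontal bar is the mean and the vertical line the SD, and all panels span the same number of log2 units. *Arntl* in mutants lies below its control mean of 10.47 in every mouse, while *Nr1d1* and *Dbp* spread widely within both genotypes.

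Of the activators, *Arntl* (probe set TC0700001660.mm.2) encodes the factor without which the loop stops. Its log2 signal ran from 9.98 over a median of 10.55 to 10.70 in the controls, and from 8.36 over a median of 9.89 to 10.32 in the mutants. All 10 mutants lay below the control median and 6 lay below every control, so the groups overlapped in part. The mean was 10.47 ± 0.25 (SD, n = 9) in controls and 9.80 ± 0.55 (SD, n = 10) in mutants, a log2 change of -0.67 ± 0.18 (SE) with a 95% interval from -1.05 to -0.29, or 1.59-fold lower (limma, adjusted p = 0.0182, two-sided exact permutation p = 0.000628 over 92378 splits of the arrays). *Arntl* passed the threshold in all 32 alternatives that were run, with adjusted p from 0.00838 to 0.0484. Mutant replicate 7 had by far the lowest signal of all, and without it the change was -0.51 (limma, adjusted p = 0.00838).

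*Clock*, the gene of the partner of ARNTL, ran from 13.78 over a median of 13.97 to 14.35 in the controls and from 13.43 over a median of 13.80 to 13.93 in the mutants. All 10 mutants lay below the control median here too, and 5 lay below every control. The step between the means was small, however, at -0.24 ± 0.10 (SE) on the log2 scale, with a 95% interval from -0.45 to -0.03, and did not pass over all genes (limma, adjusted p = 0.158, two-sided exact permutation p = 0.00469 unadjusted). Of 32 alternatives, only the Wilcoxon test that the study's methods name called it (adjusted p = 0.0457).

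Of the repressors, *Per1* is the period gene that hormones and other acute signals induce most readily. Its log2 signal ran from 3.89 over a median of 4.92 to 5.32 in the controls and from 4.59 over a median of 5.37 to 6.22 in the mutants. Detection was above background in 8 of 9 controls and in all 10 mutants. The mutants divided into 5 above every control and 5 within the control range. The difference in means was 0.60 ± 0.22 (SE) with a 95% interval from 0.14 to 1.06 and did not pass (limma, adjusted p = 0.0921, two-sided exact permutation p = 0.0297 unadjusted). It passed without mutant replicate 2 (limma, adjusted p = 0.0446) and in no other alternative.

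*Per2*, whose protein binds the CRY repressors and carries them to the nucleus, had a lower mean in mutants. It ran from 5.54 over a median of 6.50 to 7.10 in the controls and from 5.32 over a median of 6.18 to 6.80 in the mutants. These ranges overlapped almost wholly, since control replicate 1 was about as low as the lowest mutant. The change was -0.36 ± 0.18 (SE), with an interval from -0.72 to 0.01 (limma, adjusted p = 0.234, two-sided exact permutation p = 0.0796). Without control replicate 1 it passed, at -0.48 (limma, adjusted p = 0.0485), and in no other of 32 alternatives.

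*Per3* (probe set TC0400004074.mm.2), a period gene that the loop can run without, was near background in the controls. Its signal was detected in 4 of 9 controls and 9 of 10 mutants. It ran from 4.21 over a median of 4.78 to 5.11 in the controls and from 4.67 over a median of 5.06 to 5.44 in the mutants. Most mutants stood in the upper part of the joint range, 9 of 10 above the control median and 4 above every control. Means were 4.64 ± 0.35 (SD, n = 9) and 5.08 ± 0.27 (SD, n = 10), a log2 change of 0.44 ± 0.14 (SE) with a 95% interval from 0.15 to 0.73 (limma, adjusted p = 0.0479, two-sided exact permutation p = 0.00785 unadjusted). With 5 of 9 controls not above background, the control mean is in large part background, and the size of the change is not exact. The call lay at the edge of the threshold: it held in 11 of 31 alternatives and in 7 of the 19 that left out 1 mouse, where adjusted p ran from 0.0246 to 0.101. With the percentage of probe sets detected on each array as a covariate, which was higher in mutants (median 71.1% against 69.1%), the change was 0.41 and adjusted p 0.142 (limma).

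*Cry1*, the strongest repressor of the loop, gave the smallest difference among the members. It ran from 8.47 over a median of 8.74 to 9.38 in the controls and from 8.06 over a median of 8.80 to 9.56 in the mutants, so the mutant range enclosed that of the controls. The change was -0.03 ± 0.18 (SE), with a 95% interval from -0.39 to 0.33 (limma, adjusted p = 0.954, two-sided exact permutation p = 0.884). Its sign turned when some single mice were left out, from -0.12 to 0.05 over the 19, and no direction is given for it.

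The nuclear receptor genes *Nr1d1* and *Nr1d2* had opposite signs. *Nr1d1*, the gene of REV-ERB alpha, varied most of all members within both genotypes: it ran from 7.70 over a median of 9.50 to 11.16 in the controls and from 6.44 over a median of 8.19 to 10.10 in the mutants. The 3 lowest mice were mutants and the 3 highest were controls, with all others mixed between them. Its mean was 9.43 ± 1.25 (SD, n = 9) in controls and 8.12 ± 1.16 (SD, n = 10) in mutants. That is a change of -1.31 ± 0.46 (SE), 2.48-fold lower and the widest step among the members, but its 95% interval ran from -2.26 to -0.36 and it did not pass (limma, adjusted p = 0.075, two-sided exact permutation p = 0.0312 unadjusted). It passed in 4 of the 19 alternatives that left out 1 mouse: control 6 (limma, adjusted p = 0.0491), control 7 (0.0332), mutant 5 (0.0269) and mutant 6 (0.0445).

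*Nr1d2*, the gene of REV-ERB beta, ran from 7.64 over a median of 9.00 to 9.80 in the controls and from 7.69 over a median of 9.21 to 9.82 in the mutants. Both groups covered the same range. The change was 0.20 ± 0.28 (SE), with a 95% interval from -0.37 to 0.77 (limma, adjusted p = 0.74, two-sided exact permutation p = 0.533).

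Of the output factors, *Dbp* is among the genes with the widest daily swing in liver. It ran from 6.64 over a median of 7.61 to 8.90 in the controls and from 7.27 over a median of 8.00 to 9.62 in the mutants. Only 3 mutants exceeded every control, and the rest were spread through the control range. The change was 0.54 ± 0.31 (SE), with a 95% interval from -0.10 to 1.17 (limma, adjusted p = 0.323, two-sided exact permutation p = 0.156). *Tef*, its close relative, ran from 3.37 over a median of 3.90 to 4.15 in the controls and from 3.93 over a median of 4.13 to 4.64 in the mutants. The probe set was dim, detected in 5 of 9 controls and 7 of 10 mutants, yet all 10 mutants lay above the control median. The change was 0.24 ± 0.12 (SE), with a 95% interval from -0.00 to 0.49 (limma, adjusted p = 0.231, two-sided exact permutation p = 0.0325 unadjusted), and it passed in no alternative.

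**Figure D2:**
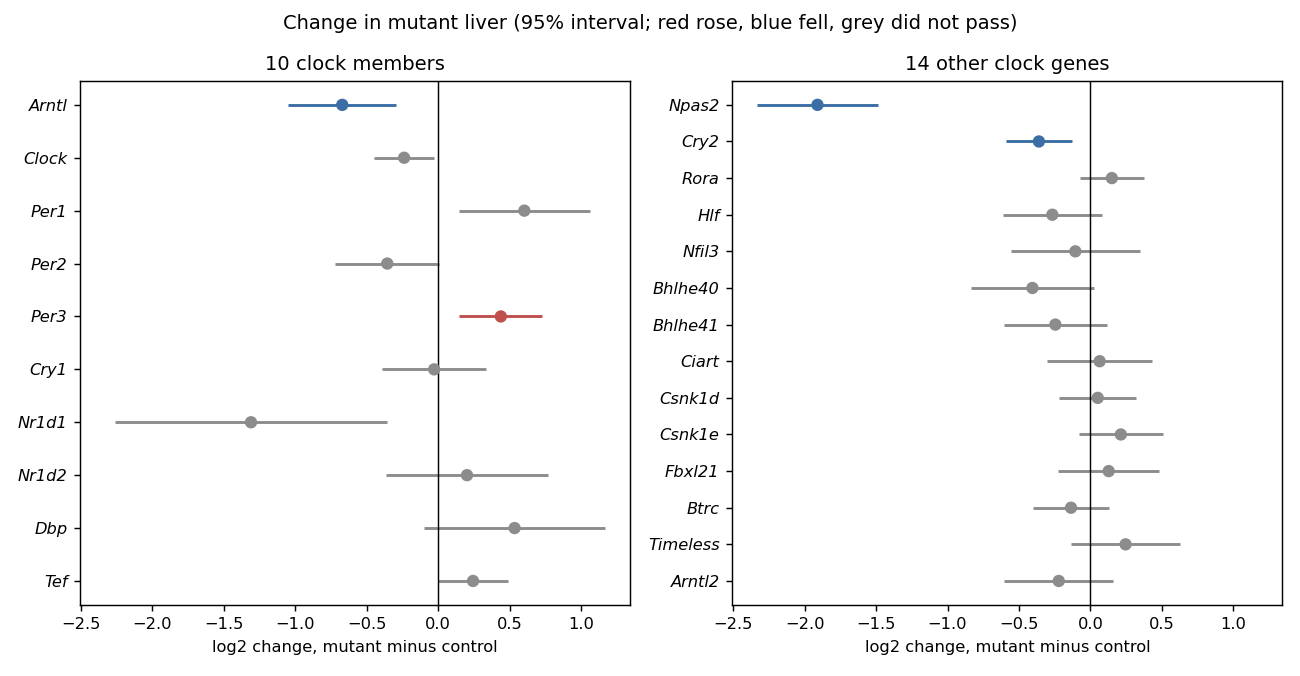
Log2 change, mutant minus control, with the 95% interval of limma, for the 10 clock members (left) and 14 other clock genes (right). Red genes rose, blue genes fell and grey genes did not pass after adjustment over all genes. *Npas2* at -1.91 lies farthest from 0, and the interval of *Nr1d1* is the widest in the left panel.

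Of 16 other clock genes written down, 14 were measured, of which 0 rose and 2 fell. Beside the 10.1% of all genes called, this count is no result about these genes as a group. *Npas2*, which can stand in for CLOCK as the partner of ARNTL, ran from 6.99 over a median of 8.17 to 8.67 in the controls and from 5.57 over a median of 5.91 to 6.70 in the mutants, so the groups did not overlap. The log2 change was -1.91 ± 0.20 (SE), or 3.76-fold lower (limma, adjusted p = 3.17e-07), and it passed in all 32 alternatives. *Cry2*, the other cryptochrome repressor, ran from 8.50 over a median of 8.77 to 9.04 in the controls and from 8.08 over a median of 8.37 to 8.79 in the mutants. It changed by -0.36 ± 0.11 (SE; limma, adjusted p = 0.0392). Below the lowest control lay 7 of 10 mutants, and the call held in 16 of 32 alternatives and 7 of the 19 that left out 1 mouse. *Bhlhe40*, a repressor that competes for E-boxes, at -0.41 and *Hlf*, another PAR bZIP factor, at -0.27 did not pass (limma, adjusted p = 0.255 and 0.379). Both changed activator genes, *Arntl* and *Npas2*, were therefore lower in the mutants, and *Rora*, which activates through the RORE, was measured at 0.15 and did not pass (limma, adjusted p = 0.457).

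Whether members varied together from mouse to mouse was examined for 12 pairs within each genotype, since mice of 1 genotype share their alleles. Of the 24 relations, 0 passed after Benjamini-Hochberg adjustment and 0 had an unadjusted permutation p under 0.05 for Pearson's r. *Arntl* and *Dbp*, which peak at different times of the day, had r = -0.54 in the controls (Spearman's rho = -0.63) and r = -0.44 in the mutants (rho = -0.52), with permutation p of 0.141 and 0.076 in the controls and 0.245 and 0.134 in the mutants (all adjusted p of r 0.535, of rho 0.532). Without the 2 mice farthest from the median of *Arntl*, r was -0.38 and -0.56. *Nr1d1* and *Dbp* had r = 0.51 in controls (rho = 0.57) and 0.54 in mutants (rho = 0.27), with permutation p of 0.162 and 0.121 in the controls and 0.11 and 0.445 in the mutants (adjusted p of r 0.535, of rho 0.532 and 0.818), and r of 0.50 and 0.49 without the 2 farthest mice. The sign was thus shared by both genotypes in these pairs, but neither relation passed the test. For *Arntl* and *Per3*, r was -0.52 in controls and 0.10 in mutants (permutation p = 0.159 and 0.816, adjusted 0.535 and 0.933, rho -0.67 and 0.15 with permutation p = 0.0589 and 0.681), and the difference between the genotypes was not tested. Among the other pairs of members, which were looked at after their values were seen and not tested, *Nr1d2* with *Dbp* had the highest r in the controls, 0.86, against 0.40 in the mutants.

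**Figure D3:**
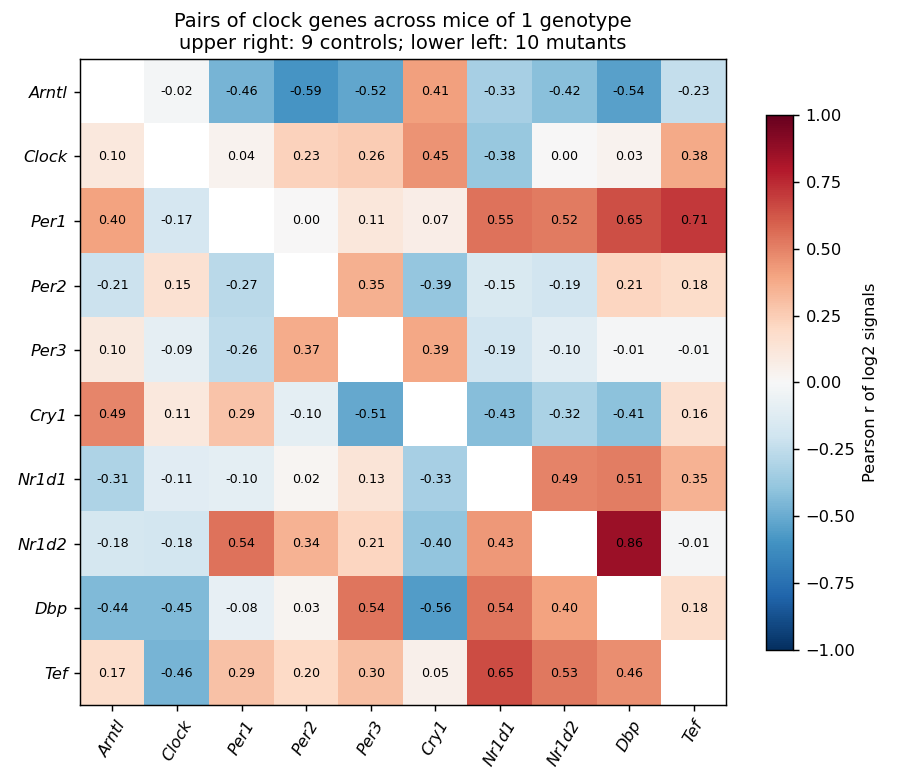
Pearson's r of the log2 signals of each pair of clock genes across the 9 controls (upper right) and across the 10 mutants (lower left), with colour and number giving r. *Arntl* is negative with *Dbp* in both triangles (-0.54 and -0.44), and *Nr1d1* is positive with *Dbp* in both (0.51 and 0.54).

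The genes whose signal followed *Arntl* and *Dbp* most closely were then looked up among the 10849 genes detected on all arrays, by r of the deviations from each genotype's mean over the 19 mice. These values describe the ranks and carry no test. For *Arntl*, the highest were *Pnrc1* (0.79), *Pilra* (0.77), *2610528A11Rik* (0.77), *Cmpk2* (0.76) and *Otud4* (0.75), and the lowest were *Slc26a5* (-0.73), *Tasp1* (-0.71), *Snx4* (-0.71), *Prpsap2* (-0.71) and *Fbxo38* (-0.71). Mutant replicate 7 lay far below the others in *Arntl*, and r was larger in size in the mutants than in the controls for each of these 10 genes, as with *Cmpk2* (0.82 and 0.32). None of them is in the lists of clock genes. *Cry1* was the nearest member to *Arntl*, at rank 280 with r = 0.47.

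For *Dbp*, a clock gene was among those named. The highest were *Stam2* (0.78), *Tbc1d19* (0.74), *Myrf* (0.73), *Pold4* (0.71) and *Pik3ap1* (0.70). The lowest were *Pdk4* (-0.77), *Nfil3* (-0.76), *Tent5a* (-0.71), *Dhrs3* (-0.69) and *Slc22a5* (-0.69). *Nfil3*, the repressor that binds the D-box, was thus second lowest of 10849 genes, with r of -0.78 in the controls and -0.76 in the mutants, although its own level did not pass between the genotypes (log2 change -0.11, limma, adjusted p = 0.839). *Pdk4*, a kinase that curbs the use of glucose in fasting, had r of -0.83 in controls and -0.74 in mutants. Among the members, *Nr1d2* stood at rank 23 (r = 0.62) and *Nr1d1* at rank 130 (r = 0.52), while *Cry1* lay near the other end at rank 10702 (r = -0.50). After quantile normalization 8 of the 10 genes named for *Dbp* kept their place among the 5 highest or lowest, and 6 of 10 for *Arntl*.

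**Figure D4:**
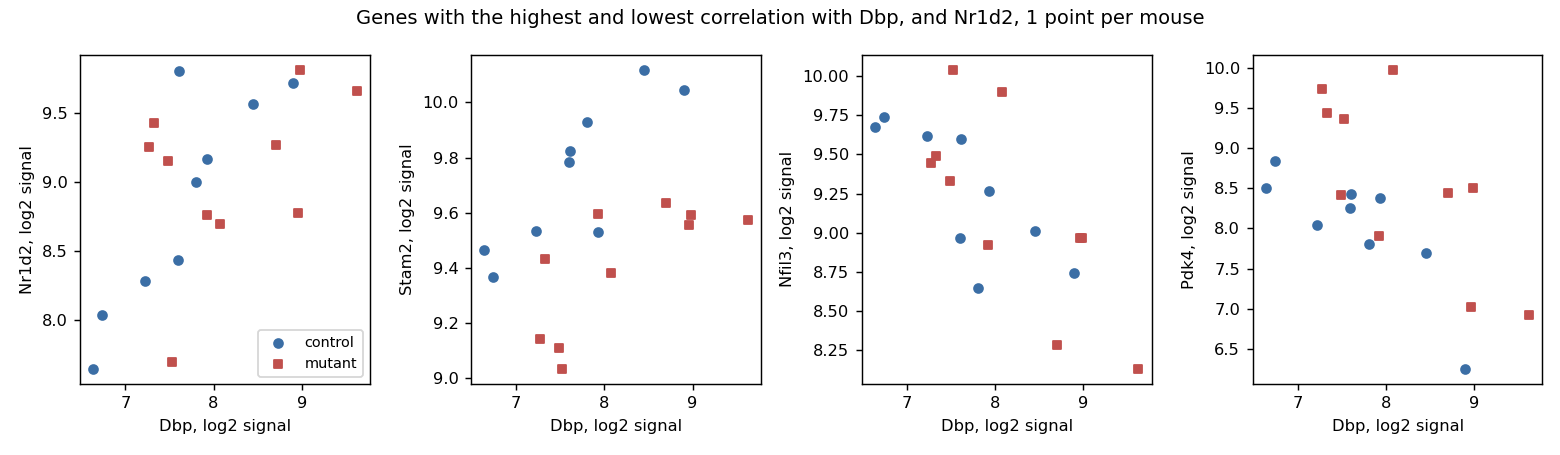
Log2 signal of *Nr1d2*, *Stam2*, *Nfil3* and *Pdk4* against that of *Dbp*, 1 point per mouse, with controls as blue circles and mutants as red squares. *Nfil3* and *Pdk4* are lower where *Dbp* is higher within each genotype (r between -0.74 and -0.83), and *Stam2* is higher there.

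Genes described as rhythmic in liver or as outputs of the clock were read from lists. These lists were written with earlier results of these data known, so their counts describe the named genes only. Of 10 rhythmic liver genes, 4 rose and 1 fell, with a median log2 change of 0.37. Over all genes 4.73% rose and 5.33% fell, with a median of 0.00. *Nampt*, the gene of the enzyme that sets the pace of NAD salvage, rose from 8.54 ± 0.37 (SD, n = 9) to 10.40 ± 0.32 (SD, n = 10), a change of 1.86 ± 0.15 (SE; limma, adjusted p = 3.65e-09). *Wee1*, a kinase that delays entry into mitosis, rose by 1.53 ± 0.15 (SE; limma, adjusted p = 1.21e-07), and *Upp2*, a uridine phosphorylase of liver, by 1.96 ± 0.24 (SE; limma, adjusted p = 2.05e-06). *Elovl3*, which elongates fatty acids, changed by -3.65 ± 0.57 (SE; limma, adjusted p = 7.85e-05). All 10 mutants lay outside the control range in each of these 4 genes. The part of the clock genes in these changes was not tested.

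Of 7 genes known to depend on the PAR bZIP factors in mouse liver, 6 were measured and 5 rose, with a median log2 change of 2.02. Over all genes 4.73% rose and the median was 0.00. This list too was written with earlier results known. *Nr1i3*, the gene of the drug-sensing receptor CAR, rose by 1.56 ± 0.21 (SE; limma, adjusted p = 1.14e-05), and *Cyp2b10*, a target of CAR, by 2.47 ± 0.45 (SE; limma, adjusted p = 0.000502). *Cyp2a5*, which oxidises coumarin, rose by 2.52 ± 0.28 (SE; limma, adjusted p = 7.3e-07). *Cyp7a1*, the rate-limiting enzyme of bile acid synthesis, rose by 2.77 ± 0.48 (SE; limma, adjusted p = 0.000304). *Alas1* rose by 1.39 ± 0.43 (SE; limma, adjusted p = 0.0382), nearer the threshold than the others. *Ppara* at 0.11 did not pass (limma, adjusted p = 0.747). *Dbp*, *Tef* and *Hlf* themselves did not pass, at 0.54, 0.24 and -0.27. These genes answer to other regulators as well, and the part of the PAR bZIP factors in their change was not tested.

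**Figure D5:**
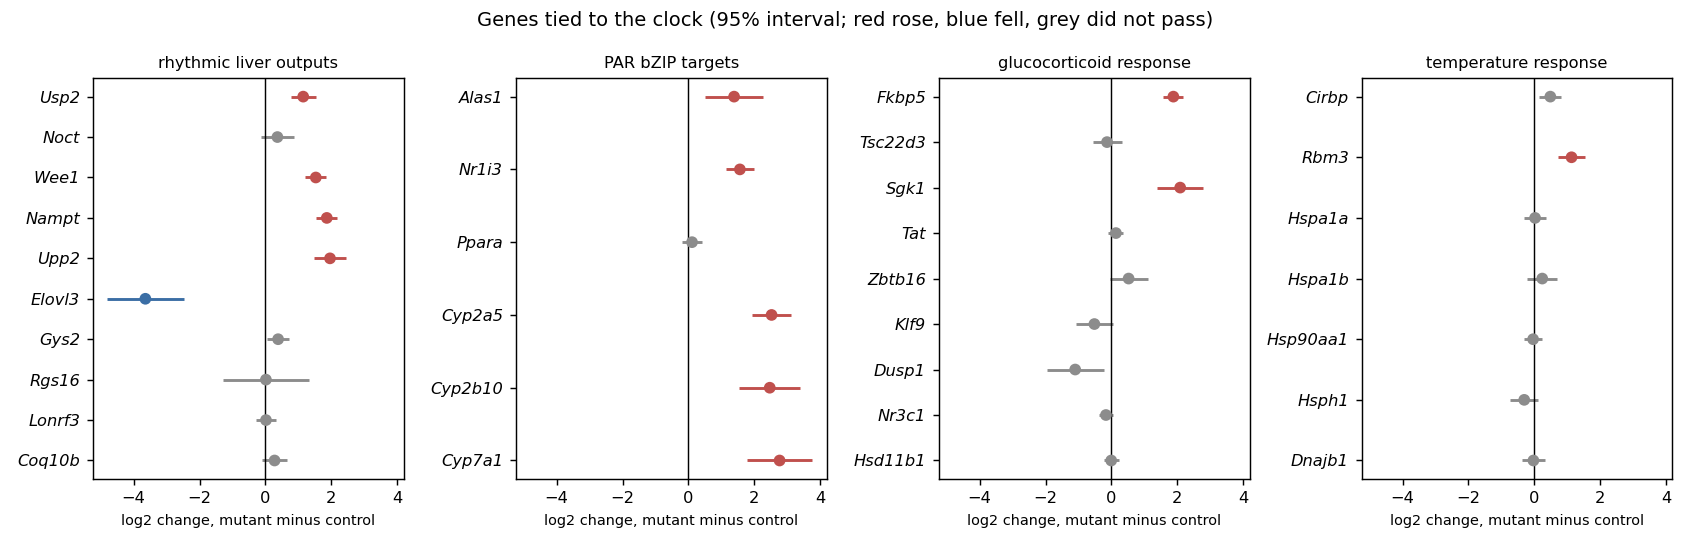
Log2 change, mutant minus control, with limma's 95% interval, for 4 lists of genes tied to the clock: rhythmic liver genes, genes that depend on PAR bZIP factors, glucocorticoid-responsive genes and temperature-responsive genes. Red genes rose, blue fell and grey did not pass. Of the 6 PAR bZIP genes 5 rose, and *Elovl3* at -3.65 is the farthest fall.

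Genes that answer to signals known to set the liver clock gave mixed values. Of 9 glucocorticoid-responsive genes, 2 rose and 7 did not pass, with a median log2 change of -0.00. Over all genes 4.73% rose and the median was 0.00. *Fkbp5*, a chaperone of the glucocorticoid receptor, rose by 1.88 ± 0.15 (SE; limma, adjusted p = 2.06e-09) and *Sgk1*, a kinase, by 2.09 ± 0.34 (SE; limma, adjusted p = 0.000121), while *Dusp1*, a phosphatase, was at -1.10 and *Klf9*, a zinc finger factor, at -0.52 (limma, adjusted p = 0.106 and 0.274). With a replicate block, and in no other alternative, these 2 passed (limma, adjusted p = 0.0431 and 0.048). Of 9 temperature-responsive genes, 7 were measured and 1 rose: *Rbm3*, an RNA-binding protein induced by mild cold, by 1.13 ± 0.20 (SE; limma, adjusted p = 0.000342). *Cirbp*, another cold-inducible RNA-binding protein, was at 0.49 (limma, adjusted p = 0.0558) and passed in 9 of 32 alternatives, and the heat shock genes *Hspa1b* and *Hsph1* at 0.24 and -0.31 did not pass (limma, adjusted p = 0.576 and 0.407). The part of either signal in the clock genes' values was not tested.

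Markers of other cells moved between the genotypes as well. In bulk liver, fewer cells of a type and less RNA per cell cannot be told apart. Over all genes 4.73% rose and 5.33% fell. Of 6 Kupffer cell markers 4 rose, among them *Clec4f* and *Vsig4*. The summed signal of the 6 on the log2 scale ran from 11.66 to 12.49 in controls and from 12.08 to 13.88 in mutants. Of 5 sinusoidal endothelial markers 1 rose, *Clec4g*. *Kdr* at 0.275, *Lyve1* at 0.33, *Pecam1* at 0.02 and *Stab2* at -0.04 did not pass (limma, adjusted p = 0.21, 0.368, 0.961 and 0.888). The 5 summed to 12.27 to 12.69 in controls and 12.65 to 13.08 in mutants, and *Clec4g* and *Kdr* make up most of that sum. Of the 2 red blood cell markers measured *Alas2* fell, while *Slc4a1* at 0.05 did not pass (limma, adjusted p = 0.826). The 2 summed to 10.25 to 11.21 in controls and 8.29 to 9.92 in mutants. *Alas2* makes up most of that sum (control mean 10.7 against 6.6), so the lower sum is a fall of *Alas2* and not of both markers. Of 7 stellate cell and fibroblast markers 1 fell, *Reln*, at -0.44 (limma, adjusted p = 0.0196). The 7 summed to 15.02 to 15.35 against 15.14 to 15.64. That sum is nearly all *Dcn*, which at 0.14 did not pass (limma, adjusted p = 0.432), and says little of the other markers. Of 4 cholangiocyte markers 1 fell, *Sox9*. *Krt7* at 0.22, *Epcam* at 0.07 and *Krt19* at -0.04 did not pass (limma, adjusted p = 0.39, 0.838 and 0.933). The 4 summed to 7.17 to 7.90 against 6.62 to 7.59, with *Sox9* the brightest of them. Of 7 lymphocyte markers 0 passed, and the 7 summed to 6.88 to 7.24 against 7.01 to 7.95. The cholangiocyte keratin *Krt19* was detected on 0 arrays of either genotype. The hepatocyte markers summed to 22.02 to 22.06 in controls and 21.99 to 22.03 in mutants, but 4 saturated probe sets make up nearly all of that sum, so it says nothing of the amount of hepatocyte RNA. The part of these shifts in the clock genes' values was not tested.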

How the data were processed

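Liver RNA of 9 control and 10 mutant mice was amplified and measured on Mouse Clariom S arrays, and the authors processed the scans with SST-RMA in the array maker's software, which corrects the background, normalizes the arrays together and summarizes the probes of a gene. The deposited log2 values were used unchanged, beside the deposited p-value of detection. Another deposited log2 table, from the value table of the series, differed by at most 0.0005. The genome build is not given in the sources used here.

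Of 22206 probe sets, 19572 name 1 gene in the platform annotation, 0 several and 2634 are unnamed in it. Of 55 genes measured more than once, the brightest probe set on average was kept, which gave 19505 genes. No dim gene was left out. Genotypes were compared with limma 3.58.1 (lmFit, eBayes) in R 4.3.3, two-sided, adjusted after Benjamini and Hochberg, and members also by exact permutation of the difference in means over 92378 splits. Correlations were tested by permutation (100000 resamples with 10 or more mice, exact otherwise). The procedure was tested on simulated data. Alternatives were the variance model, the t-test and the Wilcoxon test that the methods name, the second table, scaling, filters on dim genes, the mean over probe sets, array weights, a replicate block, the percentage detected as a covariate, and leaving out mice. Python 3.11.15 with scipy 1.17.1 was used for the rest. The number of arrays, and background for dim genes, limit the precision.

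The members, lists and tests were chosen with earlier results of these data known. The text names all 10 members, up to 4 genes with the smallest adjusted p of each other list, and the 5 genes with the highest and 5 with the lowest r. *Rora*, *Alas1*, *Ppara* and the markers were named beside this rule. Genes of the lists without a named probe set were not analysed here.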

Additional observations from a re-analysis of the deposited data

Results flagged for a closer look

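Single mice far from the rest of their genotype were looked for in 62 sets of values, each of 1 gene in 1 genotype. The genes were the members, *Mmut* and up to 4 genes with the smallest adjusted p of each list other than the markers. Of the 62 sets, 5 held such a mouse by Dixon's test at 95%. Chance flags about 1 in 20 such sets. *Arntl* was 8.36 on the log2 scale in mutant replicate 7, against 9.58 to 10.32 in the other mutants. *Clock* was 13.43 in mutant replicate 6, against 13.68 to 13.93. *Per2* was 5.54 in control replicate 1, against 6.33 to 7.10 in the other controls. *Nr1d2* was 7.69 in mutant replicate 2, against 8.70 to 9.82, and *Tef* was 3.37 in control replicate 6, against 3.77 to 4.15. All 5 were the lowest mouse of their genotype, each in another animal. All 5 genes are clock members, although the 10 members, each searched in both genotypes, made up the smaller part of the 62 sets. Whether members hold such mice more often than other genes was not tested. No trait of clock genes is read from these flags.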

How the results depend on the processing

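The count over all genes (1962) stayed within 1.5 times under each alternative and ran from 1674 to 2220 when 1 mouse was left out. *Arntl* was called in every alternative and *Per3* was not: the count of members called was 1 (*Arntl*) instead of 2 with limma's trend and robust settings, median centring, quantile normalization, only genes above the median signal (where *Per3* is not tested), the percentage detected as a covariate, the methods' t-test, and control replicate 1 and mutant replicate 6 left out together, and ran from 1 to 3 when 1 mouse was left out. *Per3* lost its call without control replicates 1, 2, 3, 8 or 9, or mutant replicates 1, 2, 5, 6, 7, 8 or 10. The count of other clock genes was 1 (*Npas2*) instead of 2 with quantile normalization, the percentage detected as a covariate, and those 2 mice left out together, and ran from 1 to 2 when 1 mouse was left out. *Cry2* was then lost without control replicates 1, 2, 3, 5 or 6, or mutant replicates 1, 2, 4, 5, 6, 8 or 9. The cause of these losses was not tested. At an unadjusted p under 0.05 the methods' t-test called 6 members and 4247 genes, and 1 and 1755 after adjustment. The Wilcoxon test called 5 and 4038, and 2 and 1764, and its 2 members were *Arntl* and *Clock*, with *Per3* lost (adjusted p = 0.137).

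The labels link mice of the 2 genotypes only by a replicate number. The deviations of same-numbered mice had r between -0.09 and 0.06, and no mouse was closest to its own number. These values cannot show whether mice shared a litter or cohort, which the labels do not give. With the replicate block the count was 1488 genes, 1 member (*Arntl*) and 1 other clock gene (*Npas2*).

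*Cry1* turned positive with the percentage detected as a covariate (0.10) and without control replicate 1 and mutant replicate 6 (0.0321), and ran from -0.1167 to 0.0505 when 1 mouse was left out. Pairs turned sign without the 2 mice farthest from the median: *Arntl* and *Clock* (0.081 in controls, -0.078 in mutants), *Arntl* and *Cry1* (-0.34 in controls), *Arntl* and *Per3* (-0.20 in mutants), *Dbp* and *Tef* (-0.12 in mutants), and *Per2* and *Per3* (-0.24 in controls, -0.088 in mutants). With Spearman's rho, *Dbp* and *Tef* (-0.083) and *Dbp* and *Per3* (0.13) turned in controls. For the named genes of the other clock, rhythmic, PAR bZIP, glucocorticoid and temperature lists the alternatives were read out after the data were seen. Of those that passed, *Cry2* alone lost its call in any, and *Dusp1* and *Klf9* (1 of 32 each) and *Cirbp* (9 of 32) gained one. The markers, *Rora*, *Alas1* and *Ppara* were not read out. Signals near background limit *Per3* and *Tef*.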
